A study of Mus musculus with 6 samples.

Results

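Tmem176a and Tmem176b are neighbouring mouse genes that encode related multi-pass membrane proteins similar to the MS4A family. They were taken as the 2 rows, of 45706 in the table, whose Ensembl identifiers (ENSMUSG00000023367 and ENSMUSG00000029810) carry these symbols. They were picked with their response to DKK1 already known, so their difference between the groups is described here and not tested. RNA was sequenced from cultured mouse lung fibroblasts, cells that had grown out of collagenase- and trypsin-digested lungs of wild-type mice for 7 days before they were detached and purified. Control cells (3 libraries) were compared with cells kept for 24 hours with 30 ng/ml of recombinant mouse DKK1 (3 libraries). DKK1 (Dickkopf-1) is a secreted inhibitor of Wnt signalling that binds the co-receptors LRP5 and LRP6. No transgene, deletion or other agent is named for either group. The labels number the replicates 1 to 3 in each group and do not say whether they came from separate mice or cultures, so p-values below measure only the spread between these libraries, which may be technical.

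The proteins of this pair lie mainly in internal membranes, including Golgi and endosomal compartments, and have been described as cation channels. Tmem176b is best known from dendritic cells and macrophages, where it has been linked to antigen handling and to restraint of the NLRP3 inflammasome. Both genes are also expressed in some innate and type 17 lymphocytes. In most tissues studied the genes are expressed together. DKK1 blocks the beta-catenin branch of Wnt signalling, whose transcription factors are the TCF and LEF proteins.

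The genes stand head to head on chromosome 6 (build GRCm38): Tmem176b on the minus strand at chr6:48833818-48841496 and Tmem176a on the plus strand at chr6:48840919-48847071 in GENCODE M21. The table lists 2 of the 7 annotated transcripts of Tmem176a and 3 of the 12 of Tmem176b, all protein-coding. The listed transcripts do not overlap, and their outermost starts are 137 bases apart. The full gene models share 578 bases, but only through transcripts that the table does not list. Whether reads were counted by strand is not given in the sources used here. The expected counts of both genes were whole numbers in all 6 libraries, within 0.001.

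**Figure D1:**
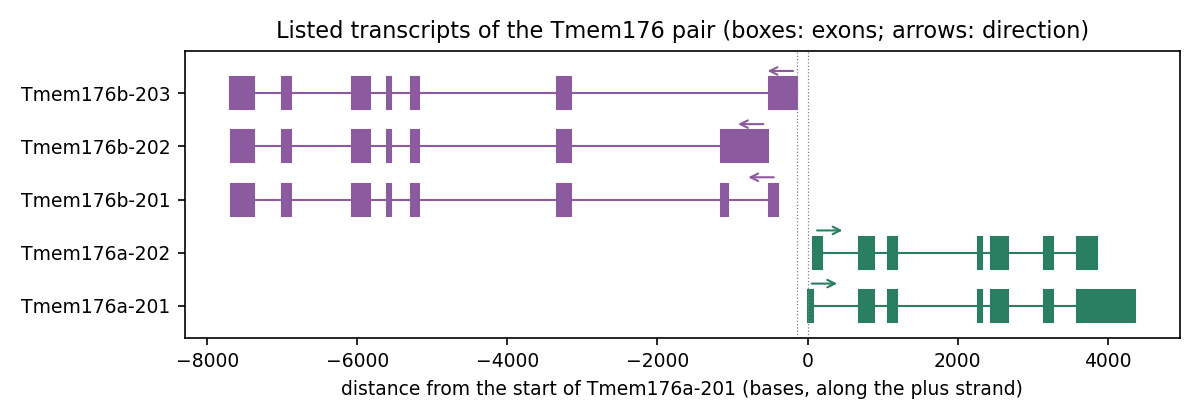
Exons (boxes) of the 5 listed transcripts by distance in bases from the start of Tmem176a-201, with arrows for the direction of transcription and dotted lines at the outermost start of each gene. The genes point away from each other, and 137 bases separate the dotted lines.

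The short interval between the outermost listed starts is shown because it lies upstream of every listed transcript of both genes; most of it falls inside the overlap of the full gene models. It is printed on the plus strand, from RefSeq's GRCm38.p6 promoter table (chr6:48841375-48841511), with the match to the NF-kappaB consensus in capitals. The second stretch lies in the first exon of Tmem176b-203, inside a RefSeq promoter window of each gene (chr6:48841291-48841319), with the match to a TCF/LEF word in capitals.
between Tmem176b and Tmem176a: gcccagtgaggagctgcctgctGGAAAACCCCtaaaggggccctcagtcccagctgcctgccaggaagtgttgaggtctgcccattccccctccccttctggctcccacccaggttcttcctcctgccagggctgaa
TCF/LEF match: agcactgtgcaATCAAAGgattccacagg

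The interval had a GC content of 63.5%. RefSeq gives 2 promoter windows for Tmem176a and 3 for Tmem176b, each from 250 bases before to 50 bases after an annotated start. They were searched on both strands for 9 motifs. These were TCF/LEF, spelled CTTTGAT, the NF-kappaB consensus, AP-1, spelled TGANTCA, the STAT element TTCNNNGAA, the C/EBP element TTNNGNAAT, the core of the ROR element, AGGTCA, the GC box GGGCGG, the TATA box TATAAA and the CCAAT box. The TCF/LEF word occurred once at this locus and fell in 2 of the 5 overlapping windows; 3.73% of all 32851 windows hold it. The NF-kappaB consensus also occurred once and fell in 2 of the 5 windows, against 2.46% of all windows. These 2 matches do not overlap. None of the other 7 motifs was found in the 5 windows; from 7.81% (AP-1) to 37.4% (CCAAT) of all windows hold each of them. A match of letters is a description of the sequence only.

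Tmem176a was present at a moderate level in untreated cells and was higher in every DKK1 library. Its expected counts were 989, 1155 and 909 in control replicates 1, 2 and 3, and 1966, 2137 and 1331 in DKK1 replicates 1, 2 and 3. Scaled to 1000000 counts per library (CPM), these were 43.8, 40.9 and 40.1 CPM in control cells and 68.6, 61.5 and 57.7 CPM with DKK1. The groups did not overlap: the lowest DKK1 library, replicate 3, was 1.32 times the highest control library, replicate 1. The mean went from 41.6 ± 1.96 CPM to 62.6 ± 5.52 CPM (SD, n = 3 each), and the fitted log2 fold change was 0.59 (SE 0.07).

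Tmem176b was the more abundant of the 2 genes and showed the same order of groups. Its expected counts were 1705, 2017 and 1662 in control replicates 1, 2 and 3, and 3522, 3985 and 2460 in the DKK1 libraries. These correspond to 75.6, 71.4 and 73.4 CPM in control cells and to 123, 115 and 107 CPM with DKK1. All 3 DKK1 values lay above all 3 control values, and the lowest of them was 1.41 times the highest control value. The mean went from 73.4 ± 2.10 CPM to 115 ± 8.10 CPM (SD, n = 3 each), with a fitted log2 fold change of 0.64 (SE 0.06).

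Both genes were among the genes called higher when edgeR's quasi-likelihood test was run over 14635 genes (Benjamini-Hochberg adjusted p under 0.05). That set held 0.697% of all genes tested, and 0.198% were called lower. In both genes the groups did not overlap, as in 9.4% of all genes in this direction and 7.14% in the other. Since the pair was chosen from this contrast, these counts are given as a description. Of the 102 genes called higher, 57 had a smaller log2 fold change than Tmem176a and 65 a smaller one than Tmem176b, so the pair lay near the middle of that set, whose median was 0.54. Without control replicate 2, Tmem176a was no longer among the called genes, at a log2 fold change of 0.575, while Tmem176b was called in all 15 alternative fits. These fits reuse the libraries from which the pair was chosen, so their calls are no independent support.

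**Figure D2:**
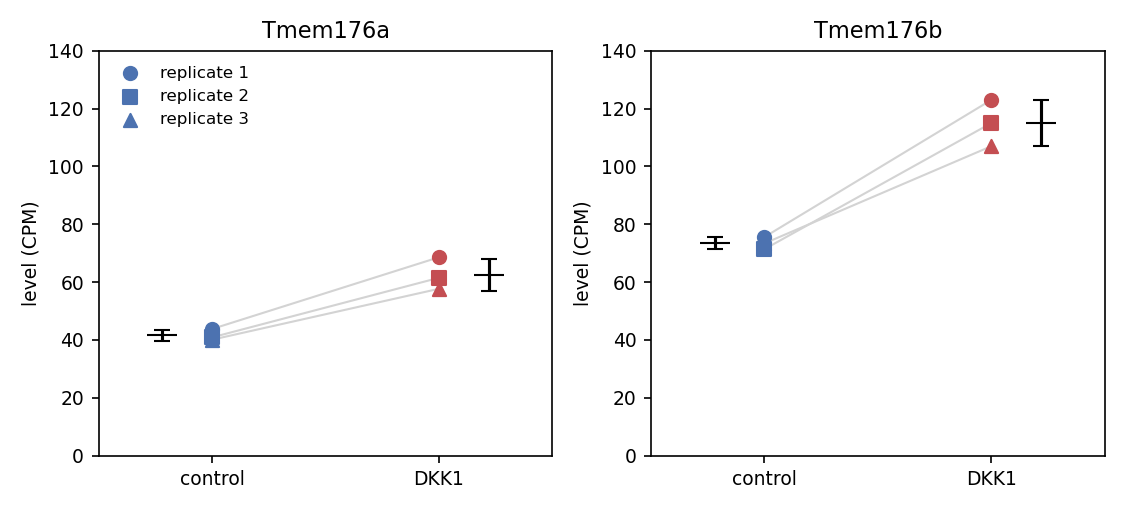
Level of each gene in CPM (vertical axis, from 0) in the 3 control and 3 DKK1 libraries, with a marker shape per replicate number, grey lines joining equal numbers and black bars for the mean and SD of each group. Every DKK1 point lies above every control point in both genes.

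Libraries with the same replicate number tended to deviate together over all genes, and the difference was therefore also read within each number. DKK1 over control was 1.57-fold in replicate 1, 1.51-fold in replicate 2 and 1.44-fold in replicate 3 for Tmem176a. For Tmem176b it was 1.63-fold, 1.61-fold and 1.45-fold. Each of the 3 numbered pairs thus showed a higher level with DKK1, and replicate 3 gave the smallest ratio for both genes. With the replicate number as a block, the fitted log2 fold changes were 0.58 (SE 0.04) for Tmem176a and 0.64 (SE 0.03) for Tmem176b.

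The spread among libraries of a group was small for both genes in control cells. The coefficient of variation of CPM was 4.71% for Tmem176a and 2.86% for Tmem176b in control libraries, and 8.81% and 7.06% in DKK1 libraries (n = 3 each). The within-group SD of log2 level was 0.10 for Tmem176a and 0.0775 for Tmem176b, beside a median of 0.0693 over the 10535 tested genes that averaged 5 CPM or more. The pair thus varied slightly more within groups than the typical gene of that set.

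Levels of the 2 genes can be compared with each other only per length. Divided by the mean length of the listed transcripts (1313 bases for Tmem176a and 1433 for Tmem176b), Tmem176a stood at 31.7 ± 1.49 CPM per kilobase in control and 47.7 ± 4.2 in DKK1-treated cells (SD, n = 3 each). Tmem176b stood at 51.2 ± 1.47 and 80.1 ± 5.65 CPM per kilobase. On this scale Tmem176b ranked within the top 14.8% to 15.7% of tested genes in control libraries and within the top 8.77% to 10.5% in DKK1 libraries. The ranks of Tmem176a were 23.1% to 24.9% in control libraries and 15% to 17.8% with DKK1. Both genes are therefore above the middle of the expressed genes of these cultures with or without DKK1.

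The proportion of the 2 transcripts varied little between libraries. The per-length ratio of Tmem176b to Tmem176a was 1.58, 1.60 and 1.67 in control replicates 1, 2 and 3, and 1.64, 1.71 and 1.69 in the DKK1 libraries. The ratio ranges of the groups overlap, although within each replicate number the ratio was the higher one with DKK1, and the group means were 1.62 ± 0.0504 and 1.68 ± 0.0352 (SD, n = 3 each). Over all 6 libraries the ratio was 1.65 ± 0.0519 (SD), while the mean CPM of the genes differed 1.51-fold and 1.56-fold between the groups. On raw counts, without the lengths, the mean ratio was 1.80.

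The genes whose profile over the 6 libraries was nearest to that of each member were sought among the other 10534 tested genes of at least 5 CPM. The measure was the root mean square difference between the log2 profiles, each centred on its own mean. For Tmem176a the nearest was Fam110c (0.0313), then Lif (0.0411), Tmem176b itself (0.0421), Crem (0.0541) and Ttc39c (0.0543). For Tmem176b the order was Ttc39c (0.0343), Tmem176a (0.0421), Crem (0.0425), Lif (0.0586) and Frzb (0.0593). The partner gene was thus at rank 3 for Tmem176a and at rank 2 for Tmem176b.

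The step between the groups, from which the pair was chosen, enters this likeness. Lif, an interleukin 6 family cytokine, went from 24.5 ± 1.71 to 38.4 ± 3.89 CPM (SD, n = 3 each; fitted log2 fold change 0.64). Frzb, a secreted Wnt antagonist, went from 22.7 ± 0.789 to 37.1 ± 2.08 CPM (fitted log2 fold change 0.70). Crem, a cyclic AMP responsive transcription factor, Fam110c and Ttc39c had log2 fold changes of 0.61, 0.56 and 0.62. When levels were instead centred within each group, which removes the step, the difference between the members was 0.0307. The partner then ranked 90th nearest to Tmem176a and 182nd nearest to Tmem176b, still close among 10534 genes, but none of the other genes named here stayed among the 5 nearest of either member.

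To show how close 2 divergent neighbours usually are, the same measure was taken over head-to-head pairs of protein-coding genes whose listed starts lie within 1000 bases. Besides the Tmem176 pair there were 454 such pairs with both genes tested and at least 5 CPM. Their median difference was 0.0856 (quartiles 0.0655 and 0.113), beside 0.0421 for the Tmem176 pair, and 27 of the 454 had a smaller one. With levels centred within each group the median was 0.0749, beside 0.0307 for the Tmem176 pair, and 22 pairs had a smaller one. The measure was not adjusted for level or depth, which also affect it.

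None of the 906 genes in the other 454 pairs was called by edgeR at an adjusted p under 0.05, beside 0.895% of all tested genes called in either direction. The 906 are protein-coding genes of at least 5 CPM, so all tested genes are not a like set. Of the 10535 tested genes of at least 5 CPM, 94 were called higher. An unadjusted p under 0.05 was found for 6.29% of the 906 and for 10.6% of all tested genes. DESeq2 called 3 of the 906 and limma-voom 0, out of 291 and 130 genes called over all genes. With the replicate block edgeR called 35 of the 906, or 3.86%, where 9.42% of all tested genes were called (4.96% higher and 4.46% lower).

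**Figure D3:**
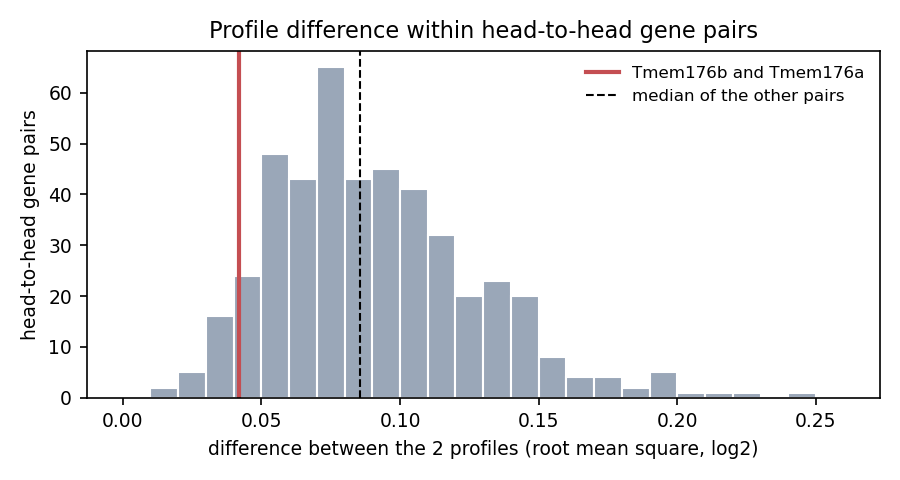
Histogram of the root mean square difference (log2, horizontal axis) between the centred profiles of the genes in each of 454 head-to-head pairs, with the number of pairs on the vertical axis. The Tmem176 pair (red line, 0.0421) lies below the median of the other pairs (dashed line, 0.0856).

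Because the pair is well known from myeloid cells, markers of the cell types that a lung culture can hold were read beside it. The cultures were rich in fibroblast transcripts: the 10 fibroblast markers, led by the collagen gene Col1a1, summed to 15743 to 17323 CPM in control and 14473 to 16266 CPM in DKK1 libraries. None of the 10 was called by edgeR, beside 0.895% of all genes tested, or by limma-voom. An unadjusted p under 0.05 was found for 3 (10.6% of all genes tested), and DESeq2 called 1, out of 291 over all genes. With the replicate block 2 were called higher and 5 lower, beside 4.96% and 4.46% of all genes tested. All 12 macrophage and monocyte markers were also detected and tested, and their sum was 441, 505 and 877 CPM in control replicates 1, 2 and 3 and 488, 526 and 920 CPM in the DKK1 libraries. Most of this sum was Lyz2 (lysozyme), at 479 ± 190 CPM in control and 501 ± 193 CPM with DKK1 (SD, n = 3 each). Smooth muscle and pericyte markers, led by Acta2, summed to 9023 to 10077 CPM in control and 7711 to 9004 CPM in DKK1 libraries, and 1 of the 8, the smooth muscle myosin gene Myh11, was called lower, beside 0.198% of all genes tested. All 8 had a log2 fold change below 0, and 5 had an unadjusted p under 0.05, beside 10.6% of all genes tested. DESeq2 called 2 of the 8 and limma-voom 1, out of 291 and 130 genes called over all genes. With the replicate block 6 were called lower, beside 4.46% of all genes tested. In bulk RNA, more cells of a type and more RNA per cell cannot be told apart.

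The libraries of replicate 3 held the most RNA of several other cell types in both groups. Epithelial markers (led by Krt8) summed to 154 CPM in control and 152 CPM in DKK1 replicate 3, and to 53.3 to 62.2 CPM in the other 4 libraries. Endothelial markers (led by Cdh5) summed to 69.3 CPM in both replicate 3 libraries and to 24.6 to 33.2 CPM in the others, and mesothelial markers (led by Krt19) to 60.1 and 61.7 CPM against 25.7 to 31.0 CPM. None of the genes in these 3 lists was called by edgeR, with or without the replicate block, by DESeq2 or by limma-voom, and 0 had an unadjusted p under 0.05, where edgeR called 0.895% of all genes tested, or 9.42% with the block, and 10.6% had such a p. Tmem176a was lowest of its group in replicate 3 in both groups, and Tmem176b was lowest of its group in DKK1 replicate 3. Without both replicate 3 libraries, the fitted log2 fold changes were 0.613 for Tmem176a and 0.687 for Tmem176b. The part of these cell types in the level of the pair was not tested.

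Single macrophage markers did not share a direction. Cd14, the co-receptor for endotoxin, rose from 9.31 ± 0.222 to 16.8 ± 1.18 CPM (SD, n = 3 each; log2 fold change 0.85, edgeR adjusted p = 0.0028). It was the only called gene of the 12, beside 0.895% of all genes tested called by edgeR in either direction. Of the 12, 6 had an unadjusted p under 0.05, beside 10.6% of all genes tested. With the replicate block 4 were called higher (Itgam, Marco, Cd14, Adgre1) and 5 lower (C1qa, C1qb, Mrc1, Fcgr1, Csf1r), or 9 of 12, where 9.42% of all genes tested were called. Marco, a scavenger receptor, stood at 6.38 ± 3.64 and 20.1 ± 8.01 CPM, and C1qb, a complement component, at 13 ± 5.67 and 5.09 ± 3.95 CPM; they were chosen here after their values were seen. The part of macrophages in the higher level of the pair was not tested. Markers of dendritic cells, the cells in which Tmem176b has been studied most, summed to 11.3 to 27.3 CPM in control and 16.4 to 26.8 CPM in DKK1 libraries, and their part in the level of the pair was not tested. Of these 10 markers, led by Itgax, 5 were tested, 0 were called by edgeR, DESeq2 or limma-voom, 0 had an unadjusted p under 0.05 (0.895% of all genes tested were called by edgeR and 10.6% had such a p), and Cd209a had 0 counts in all 6 libraries. Lymphocyte markers, led by Gata3, summed to at most 5.92 CPM, and Cd3e, the T cell receptor component, had 0 counts in all 6 libraries. A count of 0 allows up to 3 counts, or 0.0864 to 0.133 CPM depending on the depth of the library.

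**Figure D4:**
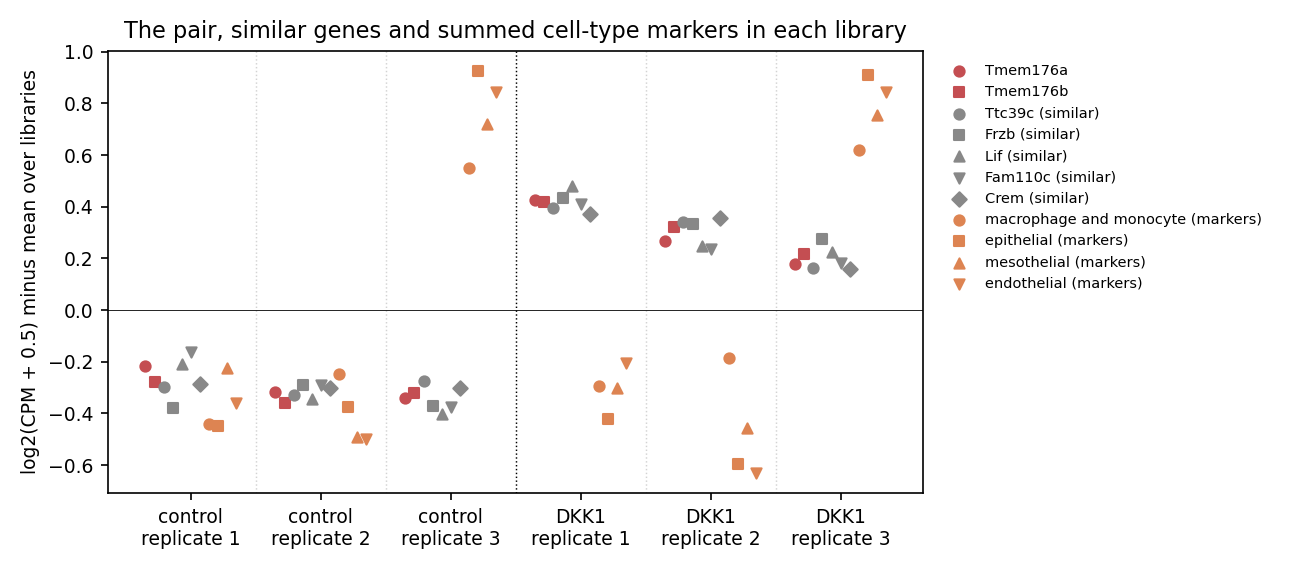
Deviation of log2(CPM + 0.5) from its mean over the 6 libraries (vertical axis) for the Tmem176 pair (red), the 5 other genes of most similar profile (grey) and the summed markers of 4 other cell types (orange), in each library. The red points lie below 0 in the 3 control libraries and above 0 in the 3 DKK1 libraries, whereas the orange points are highest in replicate 3 of both groups.

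The genes next to the pair on chromosome 6 were nearly silent, with 1 exception. Of the 5 nearest protein-coding genes on either side, 1 of 10 was expressed enough to be tested. Gimap3, the nearest gene on the Tmem176b side at 62967 bases, had 0 counts in every library, as did Gm28053 and Gimap7, while Gimap5 and Gimap1 reached at most 7 and 17 counts in a library; the Gimap genes encode GTPases of lymphocytes. Aoc1, a diamine oxidase gene 25825 bases away on the Tmem176a side, had at most 1 count in a library, as did Doxl2 and Svs1, and 1600015I10Rik had 0 counts.

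Gpnmb, a glycoprotein gene of macrophages and other cells 189475 bases from the pair, was the neighbour that could be tested. It measured 50.3, 65.7 and 124 CPM in control replicates 1, 2 and 3 and 52.8, 56.3 and 107 CPM in the DKK1 libraries. It was thus highest in the replicate 3 libraries, and the groups overlapped. The fitted difference was -0.17 on the log2 scale, with an SE of 0.35 (adjusted p = 0.932 in edgeR; with the replicate block -0.15, SE 0.05 and adjusted p = 0.0787). Gpnmb was not called by DESeq2 or limma-voom either. Of 9 tested genes farther out, 0 were called by edgeR (0.895% of all genes tested were). An unadjusted p under 0.05 was found for 1 of the 9, beside 10.6% of all genes tested. The same gene was called once the block was fitted, where 9.42% of all genes tested were. It was Tra2a, a splicing factor gene 396853 bases away, chosen here after its values were seen. It stood at 73.2 ± 1.32 CPM in control and 82.3 ± 2.76 CPM with DKK1 (SD, n = 3 each; adjusted p = 0.139 in edgeR, 0.00538 with the block).

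The pair was next set beside the MS4A family, its nearest relatives in structure. Of 19 MS4A genes 6 were tested, and 10 never exceeded 3 counts in any library, among them Ms4a1, which encodes the B cell antigen CD20 and is named here after its values were seen. None of the 6 was called by edgeR (0.895% of all genes tested were), 1 had an unadjusted p under 0.05 (10.6% of all genes tested), and DESeq2 and limma-voom called 0. The most abundant, Ms4a4d, measured 6.46 ± 0.757 CPM in control and 8.58 ± 1.46 CPM with DKK1 (SD, n = 3 each), a log2 difference of 0.41 with an SE of 0.15. Its adjusted p was 0.345 in edgeR, and it was called with the replicate block (adjusted p = 0.0186), as 1 of 6 where 9.42% of all genes tested were. Ms4a6d stood at 3.41 ± 0.504 and 4.0 ± 1.68 CPM and Ms4a8a at 1.36 ± 0.691 and 1.75 ± 0.758 CPM. Lower mean levels with DKK1 were found for Ms4a6b, at 0.507 ± 0.138 and 0.291 ± 0.182 CPM, and Ms4a6c, at 1.53 ± 0.355 and 0.934 ± 0.464 CPM, both named after their values were seen and neither called. Ms4a7, the remaining tested gene and also named after its values were seen, stood at 0.598 ± 0.331 and 1.05 ± 0.639 CPM. Its log2 difference was 0.76 with an SE of 0.53, and it was not called. Of the 6 tested genes 4 had a log2 fold change above 0 and 2 below, with a median of 0.27, beside 0.00 over all genes tested.

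Genes of the inflammasome, the complex that activates caspase 1 and that Tmem176b has been reported to restrain, did not share a direction. Of 24 listed genes 17 were tested, with a median log2 fold change of 0.00, 8 above 0 and 9 below. None was called by edgeR, beside 0.895% of all genes tested, or by limma-voom. An unadjusted p under 0.05 was found for 1 (10.6% of all genes tested), and DESeq2 called 1, out of 291 over all genes. With the replicate block 1 of the 17 was called, a share no higher than the 9.42% of all genes tested. It was Casp4, which encodes the caspase that senses intracellular endotoxin and is named here after its values were seen. It measured 2.91 ± 0.425 CPM in control and 5.05 ± 1.02 CPM with DKK1 (SD, n = 3 each), a log2 difference of 0.79 with an SE of 0.19. Its adjusted p in edgeR was 0.133, and 0.00279 with the block.

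The core inflammasome genes were low in both groups. The sensor gene Nlrp3 stood at 1.29 ± 0.724 and 1.22 ± 0.385 CPM, the adaptor gene Pycard at 2.44 ± 0.416 and 2.45 ± 0.771 CPM and Casp1 at 0.816 ± 0.405 and 0.878 ± 0.501 CPM (SD, n = 3 each); these 3 genes were singled out after their values were seen. The most abundant genes of the list were Nek7, a kinase that binds NLRP3 (204 ± 11.5 and 212 ± 5.33 CPM), Txnip, a thioredoxin-binding protein gene (137 ± 1.68 and 134 ± 2.23 CPM), and Casp8, an apoptotic caspase gene (38.5 ± 1.59 and 39.7 ± 1.68 CPM).

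Channels and pumps of endosomes and lysosomes, the compartments where the pair is found, were all expressed. All 26 genes of this list were tested, and their median log2 fold change was -0.02, with 10 above 0 and 16 below. None was called by edgeR (0.895% of all genes tested were), DESeq2 or limma-voom, and 4 had an unadjusted p under 0.05 (10.6% of all genes tested). The most abundant were Atp6ap1 and Atp6v1a, parts of the proton pump, at 187 ± 3.70 and 192 ± 5.46 CPM and at 161 ± 6.84 and 164 ± 4.13 CPM, and Tmem63a, a mechanosensitive channel gene, at 130 ± 5.14 and 123 ± 0.793 CPM (control and DKK1, SD, n = 3 each). With the replicate block 2 of the 26 were called, a share no higher than the 9.42% of all genes tested, namely the genes Tpcn1 and Tpcn2 of related endolysosomal cation channels, in opposite directions: Tpcn1 stood at 44.3 ± 2.73 and 36.3 ± 3.18 CPM (adjusted p = 0.000567 with the block) and Tpcn2 at 14 ± 2.06 and 16.9 ± 2.61 CPM (adjusted p = 0.0214 with the block).

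Genes of antigen presentation by MHC class II and of dendritic cell maturation were read for the same reason. Of 17 MHC class II genes 12 were tested, 6 above and 6 below 0, with a median of -0.02. None was called by edgeR (0.895% of all genes tested were), DESeq2 or limma-voom, and 0 had an unadjusted p under 0.05 (10.6% of all genes tested). The class II chain genes, named after their values were seen, were low. H2-Ab1 stood at 0.931 ± 0.276 CPM in control and 1.07 ± 0.152 CPM with DKK1, and H2-Eb1 at 0.504 ± 0.154 and 0.535 ± 0.0249 CPM (SD, n = 3 each). H2-Aa, at 0.156 ± 0.212 and 0.182 ± 0.0577 CPM, was not tested. The abundant members were proteases and reductases of the lysosome, Ctsl (417 ± 20.1 and 438 ± 23.4 CPM), Ctss (40.3 ± 16.8 and 31.1 ± 13 CPM) and Ifi30 (28.6 ± 2.49 and 27.7 ± 1.56 CPM). Ctss was called lower with the replicate block (edgeR adjusted p = 0.000105) and not without it (adjusted p = 0.752), as 1 of 12 where 9.42% of all genes tested were called with the block. Its log2 fold change ranged from -0.76 (without DKK1 replicate 3) to -0.03 (without control replicate 3) when 1 library was left out. Of 20 maturation genes 10 were tested, with a median of 0.10, 8 above and 2 below 0. None of these was called by edgeR (0.895% of all genes tested were), DESeq2 or limma-voom, and 2 had an unadjusted p under 0.05 (10.6% of all genes tested).

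The most abundant maturation genes in these cultures are ones that fibroblasts also use. They were Fscn1, which bundles actin (957 ± 58.9 and 885 ± 71.2 CPM), Socs2, a cytokine feedback gene (71.4 ± 10.8 and 63.9 ± 9.16 CPM), and Icam1, an adhesion molecule gene (43.1 ± 1.65 and 49.2 ± 2.19 CPM; control and DKK1, SD, n = 3 each). With the replicate block Icam1 was called higher and Fscn1 and Socs2 lower (edgeR adjusted p = 0.0233, 0.00126 and 0.00876), beside 4.96% of all genes tested called higher and 4.46% lower.

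Genes of the ROR receptors, the type 17 programme and the circadian clock that ROR proteins drive were read last. They held the only gene of the 6 lists called by edgeR with the low-count filter and without the replicate block. Without that filter edgeR called 1 gene in the inflammasome list, 1 in the endolysosomal list and 2 in this list. Of 18 genes 11 were tested, with a median log2 fold change of 0.03, 9 above and 2 below 0. An unadjusted p under 0.05 was found for 4 of the 11, beside 10.6% of all genes tested. Nfil3, a transcription factor gene tied to the clock and to innate lymphoid cells, rose: control libraries held 53.5 ± 3.4 CPM and DKK1 libraries 72.9 ± 5.12 CPM (SD, n = 3 each). The log2 difference was 0.44 with an SE of 0.07 (adjusted p = 0.0255 in edgeR). Its call was lost without control replicate 1 or 3 and without DKK1 replicate 1 or 2, at adjusted p-values of 0.07 to 0.129. By edgeR 1 of the 11 was called, beside 0.895% of all genes tested, and by limma-voom 1, out of 130 over all genes. DESeq2 called 2 genes of this list, out of 291 over all genes. The replicate block called 3, all higher, beside 4.96% of all genes tested called higher with it: Nfil3, the interleukin 1 receptor gene Il1r1 and Ahr. Il17a, Il17f, Il22, Il23r and Ccr6, genes of type 17 lymphocytes, had 0 counts in all 6 libraries.

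**Figure D5:**
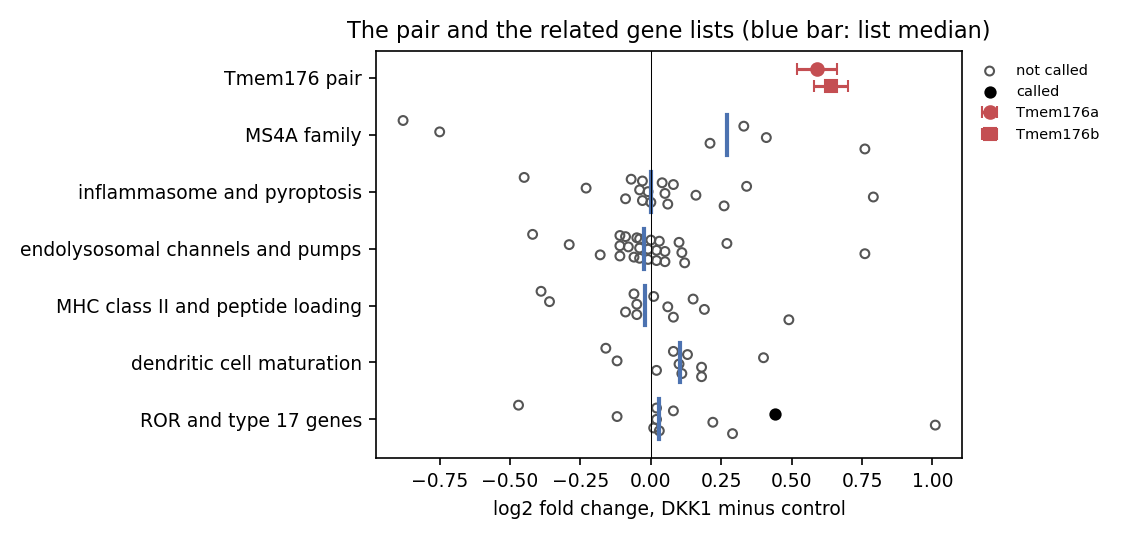
Fitted log2 fold change, DKK1 minus control (horizontal axis), of Tmem176a and Tmem176b with their standard errors (red) and of each tested gene in the 6 related lists (circles, filled where called), with the median of each list as a blue bar. The pair stands at 0.59 and 0.64, the list medians lie between -0.02 and 0.27, and the filled circle is Nfil3.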

How the data were processed

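The deposited table holds RSEM expected counts per gene, which the authors did not scale: library totals ranged from 22565917 to 34727102. STAR, RSEM, edgeR 4.2.1 and the build GRCm38 (mm10) are named in the submitters' processing notes, with no role or order; annotation release and strand setting are not given in the sources used here. Symbols matched 98.8% of identifiers, and GENCODE M21 (GRCm38) held 98.7% of the listed transcripts and gave lengths and positions.

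Expected counts were rounded and fitted over all genes with edgeR 4.0.16 in R 4.3.3 (filterByExpr with a minimum count of 10, TMM, quasi-likelihood test, two-sided, Benjamini-Hochberg adjustment, calls at adjusted p under 0.05). This left 14635 genes holding at least 99.9% of the counts of each library. Standard errors were taken as the size of the log2 fold change over the root of its F statistic. The limit of 3 counts behind a count of 0 covers counting error only; reads without molecular identifiers are not independent molecules. Profiles used log2(CPM + 0.5). The fits were also run on simulated counts that had no replicate effect, unlike these libraries. That run does not cover the replicate structure described below.

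Same-numbered samples, paired by the numbers in the titles, deviated together from their group means (correlations across genes of 0.274, 0.23 and 0.405), so the replicate number was also fitted as a block. Alternatives were other scalings and filters, unrounded counts, DESeq2 1.42.0, limma-voom (limma 3.58.1), and leaving out samples; leaving out both replicate 3 libraries was chosen after seeing the data. The first principal component (32.9% of variance) separated replicate 3 of both groups from the rest.

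The pair and the gene lists were chosen with earlier results of these data known. Named genes are the pair, the 5 nearest protein-coding genes on either side, the 5 genes nearest in profile to each member (mean of at least 5 CPM), called genes of each list or else its 3 most abundant, and the most abundant gene of each marker list; all others, including genes named for 0 counts or for a call made with the block, were chosen after their values were seen. An item withheld for evaluation is not reported here.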

Additional observations from a re-analysis of the deposited data

How the results depend on the processing

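The log2 fold changes of the pair kept their sign and moved by less than the within-group SD in all 15 alternatives run for each, from 0.515 to 0.642 for Tmem176a and from 0.588 to 0.692 for Tmem176b. The number of genes called, 131, became 329 without a low-count filter, 291 with DESeq2 and 1379 with the replicate block, and ranged from 36 to 139 when 1 sample was left out (36 without control replicate 2, 44 without DKK1 replicate 1, 51 without control replicate 1, 57 without DKK1 replicate 2) and was 149 without both replicate 3 libraries. With the replicate block, which changed no other call reported here beyond those named in the text, the calls were 1 in the MS4A list, 1 in the inflammasome list, 2 in the endolysosomal list, 1 in the MHC class II list, 3 in the dendritic cell maturation list and 3 in the ROR list. Without a low-count filter they were 1 in the inflammasome list, 1 in the endolysosomal list and 2 in the ROR list, and with DESeq2 they were 1 in the inflammasome list and 2 in the ROR list. Leaving out 1 sample gave 0 to 1 calls in the ROR list. The ratio of Tmem176b to Tmem176a, 1.65, was 1.80 without length scaling and 1.64 to 1.66 when 1 sample was left out. Of the 5 genes nearest in profile, 0 were kept for either member with levels centred within groups, and 3 to 5 for Tmem176a and 3 to 4 for Tmem176b when 1 sample was left out. Sign changes were seen for genes that were not called: leaving out 1 sample at a time moved the log2 fold change of Ms4a6d from -0.168 to 0.38 (-0.0752 without both replicate 3 libraries), of Ms4a8a from -0.0419 to 0.67, of Atp6v1a from -0.00287 to 0.06 and of Gpnmb from -0.55 to 0.282. The causes were not tested. With 3 libraries a group, a small change in genes of a few counts was not detectable.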
